A study of Mus musculus with 3 samples.

Results

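Of the 21446 gene identifiers shared by 3 single-cell libraries, 9 were followed here: the chemokine genes Cxcl12, Cxcl14, Cxcl1, Cxcl2, Cxcl5, Ccl2, Ccl7 and Cx3cl1, and Ackr3, which encodes a receptor that takes up chemokine. The genes were listed by name, with earlier results of these data known, and each was found once in every library. Chemokines are small secreted proteins that guide migrating cells by binding receptors on them. CXCL12 retains blood-forming cells in marrow through CXCR4 and is removed by the scavenging receptor ACKR3. CXCL1, CXCL2 and CXCL5 attract neutrophils through CXCR2, CCL2 and CCL7 attract monocytes through CCR2, and CX3CL1 is a membrane-bound ligand of CX3CR1. CXCL14 is made mainly by epithelia and stroma.

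The libraries held cells sorted for mCherry from the mandibular molars of mice that carry a Pthrp-mCherry knock-in on a C57BL/6 background, where mCherry reports the gene of parathyroid hormone-related protein in cementoblasts and their precursors. There was 1 library for each of 3 ages, postnatal day 15 (P15), P25 and 8 weeks, each from pooled mandibles and with no treatment given in the labels, so no test between ages was possible. A P6 library used by the study was not analysed here. The question was which cells held the transcripts of each chemokine, and cells were therefore divided by the unique molecular identifiers (UMIs, 1 per captured transcript) of 8 genes: at least 5 of Mmp3, 2 of Hand2, 10 of Ibsp, 5 of Ifitm5, 5 of Rgs5, 10 of Ogn, 10 of Krt14 or 2 of Ptprc. A cell was placed in a gate only if it passed that one and no other. Mmp3 is a matrix metalloproteinase gene of a small group of fibroblasts, Hand2 a jaw patterning factor, Ibsp and Ifitm5 genes of mineral-forming cells that mark the study's alpha and beta cementoblasts, Rgs5 a gene of mural cells, Ogn a proteoglycan gene of the study's precursors, Krt14 a keratin gene of epithelium and Ptprc the CD45 gene of blood cells.

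The 27089 cells comprised 12926 at P15, 8971 at P25 and 5192 at 8 weeks, with a median of 14253.5, 15834 and 8712.5 UMIs per cell. Between 34.8 and 45.7% of the cells of a library passed no gate and between 7.69 and 21.4% passed several. The gates held 41, 18 and 20 cells for Mmp3, 73, 93 and 73 for Hand2, 1401, 1028 and 693 for Ibsp, 138, 112 and 14 for Ifitm5, 187, 11 and 13 for Rgs5, 2206, 1674 and 874 for Ogn, 1227, 796 and 113 for Krt14, and 757, 196 and 19 for Ptprc, at P15, P25 and 8 weeks. Most cells above the Hand2 or the Ifitm5 threshold at P25 and 8 weeks also passed the Ibsp threshold (932 of 1201 and 677 of 831 for Hand2, 625 of 750 and 191 of 205 for Ifitm5), so the exclusive Hand2 and Ifitm5 gates were the minority without high Ibsp. Pairs of libraries shared 13 to 26 cell barcodes. The gates were tested by the sums of their UMIs in each library with at least 20 cells, which gave 19 sums (the Mmp3 gate at P15 and 8 weeks, the Ifitm5 and Ptprc gates at P15 and P25, the Rgs5 gate at P15, and the others at all ages), and a gene was called where the edgeR quasi-likelihood test gave a Benjamini-Hochberg adjusted p under 0.05 over 13952 genes. All 9 genes passed the filter on low counts. These p-values rest on the spread between sums of the same gate, pooled for each gene over all gates, which holds age as well as error. They therefore assume that each gate varies like the others, also where the sums of a gate differ widely. Of the marker genes, 5 of 5 epithelial markers were higher in the Krt14 gate, 5 of 5 immune markers in the Ptprc gate and 5 of 5 periapical markers in the Hand2 gate. So were 5 of 5 alpha markers in the Ibsp gate, 3 of 4 beta markers in the Ifitm5 gate and 4 of 4 precursor markers other than Cxcl12 in the Ogn gate. Each list includes the gate's own gene. Markers of other lists were higher too, so the gates are not pure. Among these were 2 of 4 beta markers (Dmp1 and Ifitm5) and the periapical Nts in the Ibsp gate. In the Ifitm5 gate 2 of 5 alpha markers (Dmp1 and Ank) were higher, and in the Ptprc gate 3 of 3 erythroid markers. The 5 epithelial markers summed to 134 to 196 CPM (counts per 1e6 UMIs of the gate's cells) in the mesenchymal gates at P15 against 18474 in the Krt14 gate, and the 3 neutrophil markers to 110 to 256 against 124583 in the Ptprc gate. The Rgs5 gate reached 20 cells only at P15, so its values are given without a call. Some fits with a library left out also kept 1 sum of a gate. These were the Mmp3 gate without P15 or 8 weeks, and the Ifitm5 and Ptprc gates without P15 or P25. An adjusted p from such a fit takes the spread of that gate from the other gates alone.

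In GENCODE vM21 on the build GRCm38, Cxcl1 (ENSMUSG00000029380) lies on chromosome 5 from 90891241 to 90893115, Cxcl2 (ENSMUSG00000058427) from 90903871 to 90905938 and Cxcl5 (ENSMUSG00000029371) from 90759360 to 90761624, all on the plus strand, with 10755 bases between Cxcl1 and Cxcl2. Ccl2 (ENSMUSG00000035385) lies on chromosome 11 from 82035571 to 82037453 and Ccl7 (ENSMUSG00000035373) from 82045712 to 82047525, 8258 bases further on the same strand. The other genes stand apart: Cxcl12 (ENSMUSG00000061353) on chromosome 6 from 117168535 to 117181367, Cxcl14 (ENSMUSG00000021508) on chromosome 13 from 56288643 to 56296551 on the minus strand, Cx3cl1 (ENSMUSG00000031778) on chromosome 8 from 94772009 to 94782427 and Ackr3 (ENSMUSG00000044337) on chromosome 1 from 90203980 to 90216751. RefSeq promoters, from 250 bases before to 50 bases after the start of the gene on GRCm38.p6, were at hand for 6 of the 9 genes. There was none for Cxcl5, Ccl2 and Ccl7, which were therefore not searched. The consensus of NF-kappaB, a transcription factor of inflammatory genes, was searched by its usual degenerate 10-base form on both strands and matched in Cxcl1 and Cxcl2 among these 6. The match begins 71 bases before the RefSeq start of Cxcl1 and 97 bases before that of Cxcl2. These starts differ from the GENCODE starts given above. The windows around the matches lie at chr5:90891164-90891193 for Cxcl1 and chr5:90903792-90903821 for Cxcl2. Both windows are on the plus strand, with the matching letters in capitals, and are shown because the neighbouring genes hold the same letters but were highest in different cells:
Cxcl1: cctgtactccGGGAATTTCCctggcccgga
Cxcl2: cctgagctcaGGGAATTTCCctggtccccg
A second match on the opposite strand overlaps each of these by all but 1 base. Of all 32851 RefSeq promoters of this length, 4.51% held the consensus, and a match is a description of these letters, not evidence that the factor binds there.

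Among the gates with at least 20 cells, Cxcl12 was highest in the Ogn gate at each age. Its level there was 214 CPM (exact 95% Poisson interval 210 to 219) at P15, 283 (277 to 289) at P25 and 370.2 (358 to 382) in the 8-week library. The Ogn gate, 16.8 to 18.7% of the cells, held 39.3, 52.6 and 41.7% of all Cxcl12 UMIs at these ages. After each cell was thinned to 3000 UMIs, 42.2, 51.5 and 55.6% of its cells had a Cxcl12 UMI, against 1.95, 1.86 and 1.06% in the Krt14 gate, where epithelial cells should lack the gene (median UMIs before thinning 17657, 17938.5 and 11300 in the Ogn gate and 14830, 27946 and 14977 in the Krt14 gate). The Poisson and binomial intervals given here cover counting error only.

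Relative to the mean of the other mesenchymal gates, Cxcl12 was higher in the Ogn gate by 2.41 ± 0.32 (log2 ± SE, n = 3 sums; edgeR quasi-likelihood adjusted p = 0.000726). It was the 1 gene of the 9 called there, while 5.05% of all genes tested were called. Cxcl12 is among the markers the study took for its precursors on these libraries, so this direction is no independent evidence. Leaving out P25 gave 2.42, with an adjusted p of 0.0543 by the same edgeR test. The Ifitm5 gate stood at the other end, with 7.50 CPM at P15, 12.8 at P25 and 0 UMIs in 14 cells at 8 weeks, which allows up to 12.9 CPM. Cxcl12 was lower there than in the other mesenchymal gates by 3.08 ± 0.53 on the log2 scale (edgeR adjusted p = 0.00169, n = 2 sums), or with an edgeR adjusted p of 0.0636 without P25. Of the 9 genes, 2 were called in the Ifitm5 gate against 13.3% of all genes. With the library as a block Cxcl14 was also called there, at -1.79 (edgeR adjusted p = 0.0433).

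The Ibsp gate held 68.4, 22.5 and 24.0 CPM of Cxcl12, between the Ogn and Ifitm5 gates at every age. Against the other mesenchymal gates this was -1.06 (edgeR adjusted p = 0.206), and without P15 it was -1.92 (edgeR adjusted p = 0.0101). The Ibsp gate exceeded the Ifitm5 gate by 1.68 ± 0.54 (log2 ± SE), which did not pass the test (edgeR adjusted p = 0.0974). None of the 9 genes was called between the Ibsp and Ifitm5 gates by edgeR, with 1 at an unadjusted p under 0.05 and 1 called by DESeq2, where 4.86% of all genes were called. Without the 6% of cells with the highest doublet scores the Cxcl12 difference was 2.25, with an adjusted p of 0.0369 by the same edgeR test. Over 15 alternatives it ranged from 0.51 to 2.74, and it was called in 4 and not in the other 11. Cells that passed both thresholds and no other, 331, 561 and 178 at P15, P25 and 8 weeks, are in neither gate. Hand2 cells had 119, 102 and 125 CPM and Mmp3 cells 62.0, 101 and 128 CPM, and neither gate was called for Cxcl12. The Rgs5 gate had 133 CPM (117 to 149, 187 cells) at P15, 347 (251 to 467, 11 cells) at P25 and 486 (373 to 624, 13 cells) at 8 weeks.

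**Figure D1:**
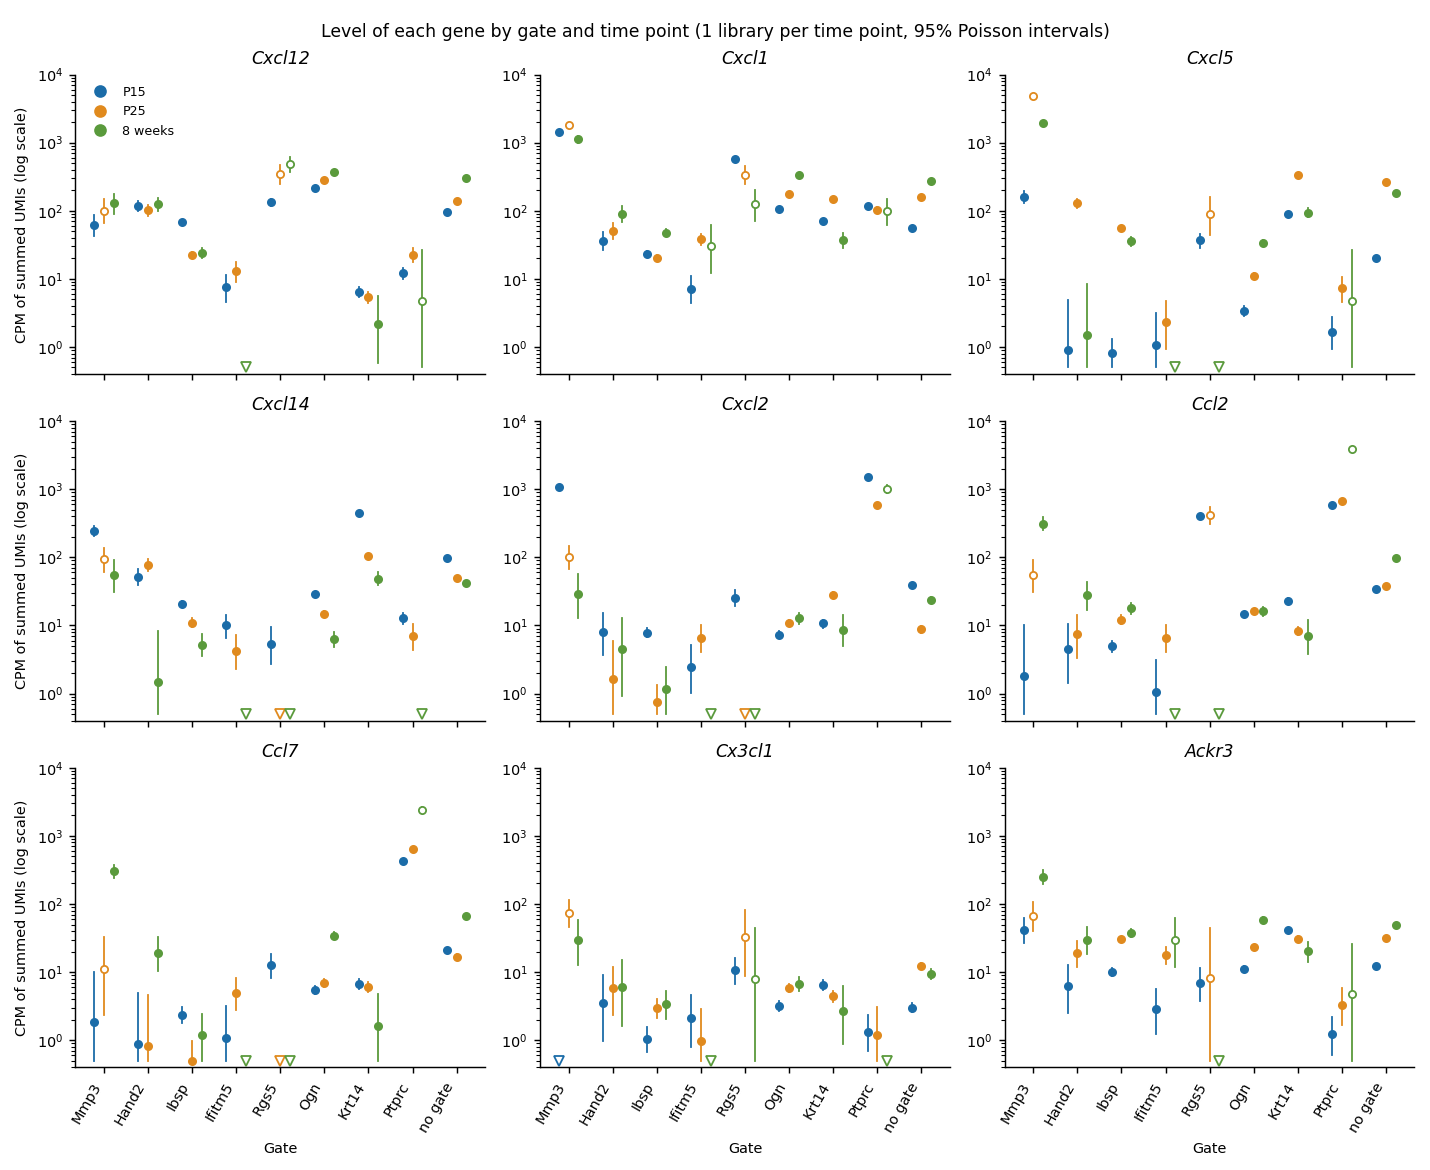
Level of each of the 9 genes by gate (horizontal axis) at P15, P25 and 8 weeks (colours), in CPM on a log axis; bars on the points are exact 95% Poisson intervals of each summed count, which cover counting error only. Cxcl12 was highest in the Ogn and Rgs5 gates, Cxcl14 in the Krt14 and Mmp3 gates, Cxcl1 and Cxcl5 in the Mmp3 gate, and Cxcl2, Ccl2 and Ccl7 in the Ptprc gate.

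A few cells carried very much Cxcl12. At P15, 29 cells held at least 50 UMIs each and together 22.8% of the library's Cxcl12, against 1 such cell at P25 and 0 at 8 weeks. Of the 29, 12 were among the 104 cells that passed both the Ibsp and the Ogn threshold, whose level was 1071 CPM at P15, 345 at P25 and 61.7 in the 8-week library. Those 12 cells held 87.1% of the Cxcl12 UMIs of the 104. At P25 a single cell held 53.2% of those of the 77 cells that passed both thresholds. The genes that stood out most in the 29 cells, ranked by fold after the data were seen, were led by Adipoq (1042 CPM against 0.203 in the other cells), the adiponectin gene, then Ptx3 (1077 against 12) and Cp (914 against 11.8), the ceruloplasmin gene, and included Lpl (2597 against 56.3), which encodes lipoprotein lipase, and the transcription factor gene Ebf3 (434 against 4.12). The highest cell had 466 UMIs, where no cell of the exclusive Ogn gate exceeded 47. Cells of no gate held 27.7, 29.7 and 49.5% of Cxcl12, with 96.6, 139 and 306 CPM. Among them, 141 cells with at least 3 Pecam1 UMIs at P15 reached 717 CPM, and the 89 cells of no gate with at least 10 Cxcl12 UMIs at P15 were led by Flt1 (528 CPM against 7.12), Ctla2a (485 against 10.4), Plvap (387 against 7.30) and Kdr (314 against 4.52), of which Flt1 and Kdr encode VEGF receptors of endothelium. The corresponding 65 cells at 8 weeks were led instead by Apod (5644 CPM against 556) and Trf (313 against 23.4).

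Cxcl12 was lower in epithelial and blood cells. The Krt14 gate had 6.43, 5.38 and 2.17 CPM at P15, P25 and 8 weeks, lower than the mesenchymal gates by 3.71 ± 0.45 on the log2 scale (edgeR adjusted p = 1.65e-05, n = 3 sums). This call held under all 15 alternatives. The Ptprc gate had 12.1, 22.3 and 4.69 CPM and was lower by 2.03 ± 0.48 (edgeR adjusted p = 0.00312, n = 2 sums), or with an edgeR adjusted p of 0.0634 without P25. In these contrasts 2 of the 9 genes were called in the Krt14 gate and 5 in the Ptprc gate, where 46.6 and 46.4% of all genes were called. Without P15 the Krt14 gate was also called for Cxcl2, higher by 2.04 (edgeR adjusted p = 0.00571), and for Ccl2, at -1.43 (edgeR adjusted p = 0.0109).

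Ackr3, the gene of the CXCL12 scavenger, was spread over several gates rather than held by the Ogn gate. Mmp3 cells had 41.9 CPM (26.6 to 62.9) at P15, 67.2 (39.8 to 106) at P25 and 253 (197 to 320) at 8 weeks, on 23, 18 and 69 UMIs. Krt14 cells had 41.2, 31.0 and 20.1 CPM at the same ages, Ogn cells 11.1, 23.4 and 59.0, and Ibsp cells 10.1, 30.3 and 37.1. The Ogn and Ibsp levels and that of the cells of no gate (12.2, 31.4 and 49.7 CPM) were higher at each later age, with Poisson intervals that did not overlap between P15 and P25, while the Krt14 level was lower at each later age. The Mmp3 gate exceeded the other mesenchymal gates by 2.98 ± 0.74 (log2 ± SE, edgeR adjusted p = 0.0242, n = 2 sums). Without the 8-week library this was 1.54 (edgeR adjusted p = 0.505), leaving out P25 the edgeR adjusted p was 0.0860, and without the highest cell of the gene it was 2.41 (edgeR adjusted p = 0.0812). Ackr3 was lower in the Ptprc gate, with 1.22 CPM at P15 and 3.32 at P25, by 3.38 ± 1.05 on the log2 scale (edgeR adjusted p = 0.0167, or 0.161 without P25).

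Ackr3 and Cxcl12 were high in the same cell in few cells. Of the cells with at least 5 Ackr3 UMIs, 0 of the 59 P15 cells, 30 of the 218 P25 cells and 9 of the 97 cells from 8 weeks also had 5 Cxcl12 UMIs, or 0, 13.8 and 9.28%. Of all cells of these libraries 9.83, 15.1 and 13.7% did, so the shares at P25 and 8 weeks were near those of all cells. The 11 cells of no gate with at least 10 Ackr3 UMIs at P25 were led by Mfap5 (3456 CPM against 38.5), Tnxb (699.8 against 5.26) and Igfbp6 (5871 against 137), and the 21 such cells at 8 weeks by Pcolce2 (1499 against 45.6) and Tnxb (1084 against 34.4), which are genes of connective tissue matrix apart from the growth factor binding protein gene Igfbp6.

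Cxcl14 was highest in epithelial cells and in the Mmp3 gate. The Krt14 gate had 442 CPM (433 to 451) at P15, 106 (102 to 111) at P25 and 48.9 (39.3 to 60.1) at 8 weeks, and held 48.1, 41.2 and 10.9% of the gene's UMIs. A Cxcl14 UMI was found in 25.1, 17.3 and 10.6% of the thinned Krt14 cells against 2.45, 1.54 and 0% of the Ptprc cells. The level was lower at each later age in the Krt14, Mmp3 (244, 93.3 and 55.1 CPM), Ogn (29.1, 14.7 and 6.32 CPM) and Ibsp gates (20.7, 11 and 5.25 CPM), with Poisson intervals that overlapped between P25 and 8 weeks in the Mmp3 gate, and over all cells it was 99.9, 37.2 and 17.9 CPM. Cxcl14 was higher in the Krt14 gate than in the mesenchymal gates by 3.43 ± 0.66 (log2 ± SE, edgeR adjusted p = 0.00079, n = 3 sums), or by 2.49 with an edgeR adjusted p of 0.0691 without P15. Among the mesenchymal gates it was higher in the Mmp3 gate by 3.43 ± 0.83 (edgeR adjusted p = 0.0218), but by 1.99 without P15 (edgeR adjusted p = 0.661) and with an edgeR adjusted p of 0.123 without P25. Between 31.8 and 73.3% of Cxcl14 lay in cells of no gate. The 158 such cells with at least 10 UMIs at P15 were led by Nppc (1091 CPM against 14.9), Saa3 (792 against 23.8), Col14a1 (951 against 34.0) and Fst (1103 against 46.5), which encode a natriuretic peptide, an acute-phase protein, a collagen and the activin antagonist follistatin.

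**Figure D2:**
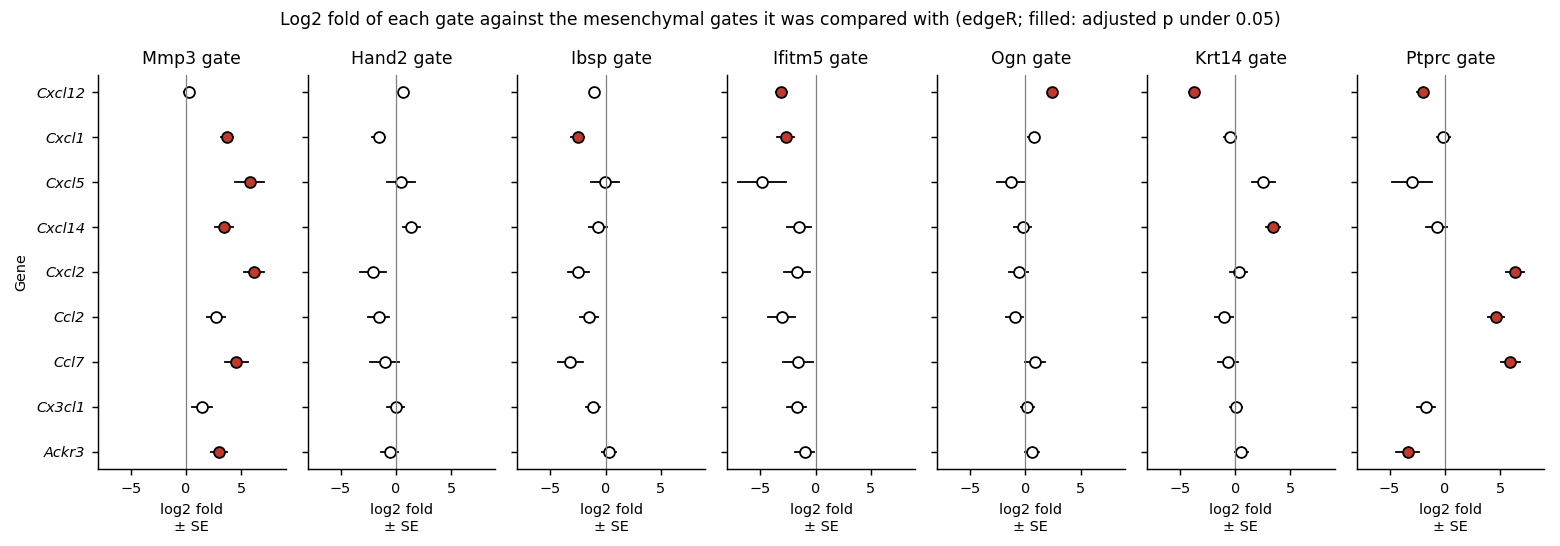
Fitted difference of each gene between a gate and the other mesenchymal gates, or for Krt14 and Ptprc the 6 mesenchymal gates, on the log2 scale with bars of 1 SE; filled points have an edgeR quasi-likelihood adjusted p under 0.05. In the Mmp3 gate 6 of 9 genes were called higher, in the Ogn gate Cxcl12 alone, and in the Ptprc gate Cxcl2, Ccl2 and Ccl7 higher and Cxcl12 and Ackr3 lower.

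The neutrophil attractant Cxcl1 was highest in the Mmp3 gate. Its 41, 18 and 20 cells had 1436 CPM (1338 to 1540) at P15, 1792 (1635 to 1960) at P25 and 1123 (1001 to 1256) at 8 weeks. A single cell with 569 UMIs held 72.2% of the P15 count, and without it the level was 399 CPM, which was still above that of the Ogn gate (105 CPM). Cxcl1 exceeded the other mesenchymal gates by 3.72 ± 0.53 (log2 ± SE, edgeR adjusted p = 0.000971), and by 2.97 (edgeR adjusted p = 0.00586) without the highest cell. Together 6 of the 9 genes were called higher in the Mmp3 gate, where 5.95% of all genes were called higher and 8.51% in either direction. The 9 were chosen with earlier results of these data known, so this count is no independent evidence. The Rgs5 gate had 576 CPM (543 to 610) at P15 and 339 and 126 CPM in the 11 and 13 cells of the later ages, of which 81.0% lay in 1 cell at P25.

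Most Cxcl1 transcripts were nonetheless outside the Mmp3 gate, which held 2.56 to 5.45% of them. The Ogn gate held 30.4, 31.0 and 39.9%, at 105, 176 and 332 CPM. Cells of no gate held 24.8, 32.5 and 46.7%, at 55.2, 161 and 271 CPM. In both, the level was higher at each later age, and so was the summed level of 11 genes that dissociation of tissue induces, which was 13636, 21714 and 31840 CPM in the Ogn gate and 13754, 16922 and 29907 CPM in cells of no gate. Its part in the Cxcl1 levels was not tested. Within the Mmp3 gate the sum of these 11 genes was 6948, 12504 and 15998 CPM, and its part in the Cxcl1 levels there was not tested either.

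Cxcl1 was low in the mineral-forming gates. Ibsp cells had 23.1, 20.2 and 47.6 CPM and Ifitm5 cells 7.14, 38.2 and 30.0. It was lower in the Ibsp gate by 2.55 ± 0.62 on the log2 scale (edgeR adjusted p = 0.0466), the 1 gene of the 9 called there against 2.34% of all genes, and in the Ifitm5 gate by 2.69 ± 0.76 (edgeR adjusted p = 0.031). Neither call held when any 1 library was left out, with edgeR adjusted p from 0.153 to 0.284 for Ibsp and from 0.0524 to 0.382 for Ifitm5. DESeq2 called 3 of the 9 genes lower in the Ibsp gate, where it called 656 of 14486 genes. It added Cxcl2 (-2.58, Wald test adjusted p = 0.0358) and Ccl7 (-3.39, Wald test adjusted p = 0.0444). In the Ifitm5 gate DESeq2 added Ccl2 (-3.08, Wald test adjusted p = 0.0120), where it called 2387 of 13473 genes. Ccl2 was also called lower there in thinned cells (edgeR adjusted p = 0.0369) and without its highest cell (edgeR adjusted p = 0.0292). The Krt14 gate had 70.4, 149 and 36.9 CPM of Cxcl1 and the Ptprc gate 119, 103 and 98.5 CPM, and neither was called for Cxcl1. None of the 9 genes was called in the Hand2 gate by edgeR in the main fit or by DESeq2. Of all genes 2.38% were called there by edgeR. Cxcl1 was the 1 gene at an unadjusted p under 0.05, at -1.55 (edgeR adjusted p = 0.211). With doubled thresholds Cxcl1 was called lower there, at -2.66 (edgeR adjusted p = 0.0303, n = 3 sums), where 659 of 14052 genes were called.

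Cxcl5, the farthest of the 3 neutrophil attractants along chromosome 5, was shared by the Mmp3 gate and the epithelium. Mmp3 cells had 160.4 CPM at P15, 4839 at P25 and 1930.5 at 8 weeks, on 88, 1296 and 526 UMIs, so that the P25 level, in 18 cells, was above both others. Krt14 cells had 88.5, 334 and 93.4 CPM and held 46.9, 35.2 and 4.28% of the gene's UMIs. All other mesenchymal gates were at or below 129 CPM, and the 129 CPM of Hand2 cells at P25 came to 96.8% from 1 cell. Cxcl5 exceeded the other mesenchymal gates in the Mmp3 gate by 5.77 ± 1.30 (log2 ± SE, edgeR adjusted p = 0.0149), but by 3.20 without the 8-week library (edgeR adjusted p = 0.379) and with an edgeR adjusted p of 0.0713 without P15. In the Krt14 gate it exceeded the mesenchymal gates by 2.54 ± 1.03 (edgeR adjusted p = 0.0572), or by 3.43 without 8 weeks (edgeR adjusted p = 0.0493). With the library as a block this was 2.60, with an edgeR adjusted p of 0.00748, and without the highest cell of the gene 3.90, with an edgeR adjusted p of 0.00171. By its header the P25 table also came from Cell Ranger 6.0.1 and lists 32293 genes, against 6.1.2 and 22056 for the other libraries. The labels name no gene reference, and this difference and the age cannot be told apart at P25.

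Cxcl5 was concentrated in few cells. The 1% of cells with the most UMIs held 86.4, 71.3 and 95% of it, against 39.3, 35.7 and 32.0% for Cxcl1. Of the 273 cells with at least 10 UMIs at P25, 84 were in the Krt14 gate, 10 in the Mmp3 gate and 140 in no gate. The cells of no gate were led by the chemokine gene Ccl21a (726 CPM against 0.125), which was not among the leading genes of the P25 Mmp3 gate. Some of their other leading genes were shared with that gate. Enpp2, the autotaxin gene, was at 1473 CPM against 55.4 in the other P25 cells and at 1579 in the Mmp3 gate. Col6a5 was at 429.7 CPM against 18, and at 467 in the Mmp3 gate. At 8 weeks the 37 such cells were led by Enpp2 (2197 CPM against 59). None of their leading genes was among those of the 8-week Mmp3 gate. Of the cells with at least 5 Cxcl5 UMIs, 30.7, 57.3 and 57.1% also had 5 Cxcl1 UMIs, against 5.25, 9.16 and 8.44% of all cells.

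**Figure D3:**
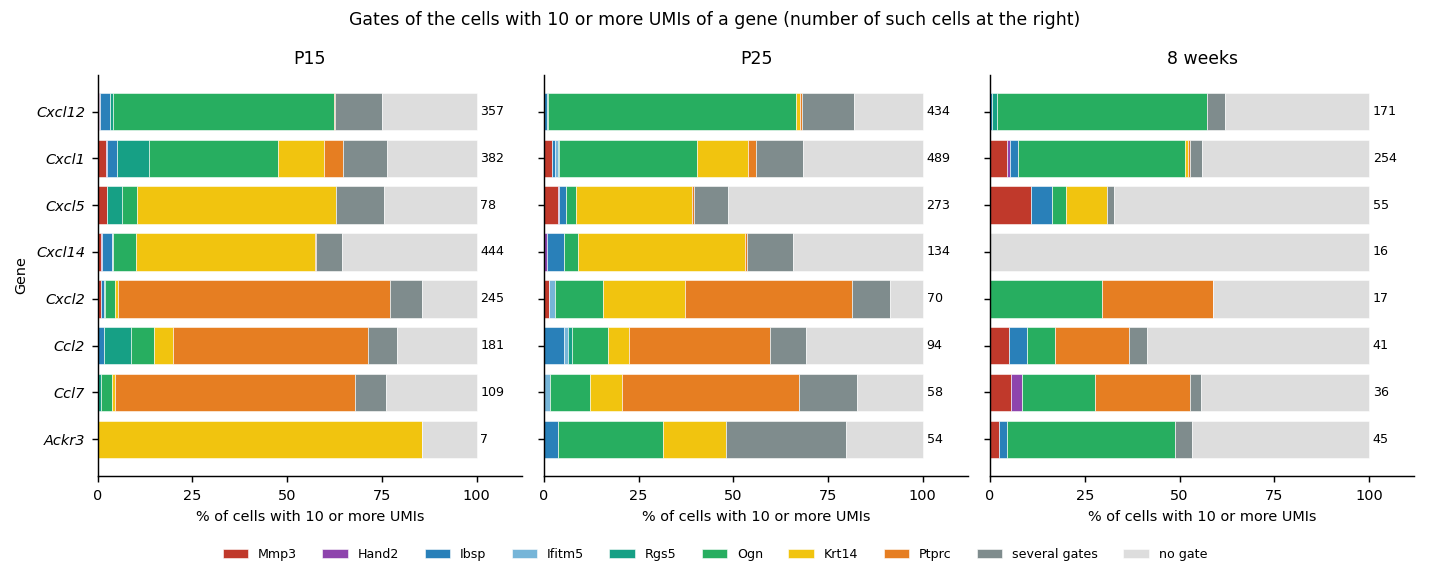
Percent of the cells with at least 10 UMIs of a gene that lay in each gate at P15, P25 and 8 weeks, with the number of such cells at the right. Cells of no gate and of several gates are shown apart, and Cx3cl1, which had no such cell, is left out. Cells rich in Cxcl12 were mostly in the Ogn gate (209 of 357 at P15), those rich in Cxcl2 were most often in the Ptprc gate at P15 and P25 (176 of 245 and 31 of 70) but not at 8 weeks (5 of 17, with 7 in no gate), and those rich in Cxcl5 in the Krt14 gate and in no gate (84 and 140 of 273 at P25).

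Cxcl2, the neighbour of Cxcl1, was highest in the Ptprc gate. The Ptprc gate had 1499 CPM (1474 to 1524) at P15, 580.4 (555 to 607) at P25 and 1023 (892 to 1168, 19 cells) at 8 weeks, and held 73.3, 52.4 and 29.8% of all Cxcl2 UMIs, with 47.4% in cells of no gate at 8 weeks. A Cxcl2 UMI was found in 37.6, 23.1 and 31.2% of its thinned cells against 0.866, 0.201 and 0.489% of the Ibsp cells. Cxcl2 exceeded the mesenchymal gates by 6.33 ± 0.83 (log2 ± SE, edgeR adjusted p = 3.09e-05, n = 2 sums), a call that held under all 15 alternatives. Within the Ptprc gate at P15, 280 cells with at least 2 UMIs of Csf1r, the receptor gene of macrophages and monocytes, had 1990.2 CPM and 381 cells with at least 10 UMIs of S100a8, a neutrophil gene, had 1115 CPM, while 60 cells with at least 3 UMIs of the B cell gene Cd79a had 13.0 CPM. These subsets overlap. A further 65 cells of the gate at P15 passed none of the 3 thresholds and also held Cxcl2, so it was not limited to these subsets. In the mesenchyme the Mmp3 gate had 1079 CPM at P15, 101 at P25 and 29.4 at 8 weeks. A single cell held 83.6% of the P15 count, and the level without it was 177 CPM. Cxcl2 was called higher in the Mmp3 gate by 6.12 ± 0.90 (edgeR adjusted p = 0.00124) and by 4.44 without the highest cell (edgeR adjusted p = 0.00415), but by 2.71 without P15 (edgeR adjusted p = 0.213). The 35 cells of no gate with at least 10 Cxcl2 UMIs at P15 were led by Prss34 (2517 CPM against 42.8), Ccl12 (790.0 against 15.9) and Mcpt8 (1840 against 51.6), of which Prss34 and Mcpt8 are protease genes of basophils.

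The monocyte attractants Ccl2 and Ccl7 were also highest in the Ptprc gate, and within it in the Csf1r cells. Ccl2 stood there at 591 CPM (575 to 607) at P15, 672 (645 to 701) at P25 and 3913 (3652 to 4188, 19 cells) at 8 weeks, and Ccl7 at 428, 636 and 2407 CPM. The gate held 50.9, 41.5 and 30.5% of all Ccl2 UMIs, and cells of no gate held 52.2% at 8 weeks. Within the gate at P15 the Csf1r cells had 1269.6 CPM of Ccl2 and 930.5 of Ccl7, the S100a8 cells 19.3 and 4.38, and the Cd79a cells 3.24 and 0. The P25 library gave 766 CPM of Ccl2 and 727 of Ccl7 in 153 Csf1r cells and 5.26 of each in 14 S100a8 cells. The S100a8 cells of P15 and P25 had Cxcl2 but little Ccl2 or Ccl7. Ccl2 exceeded the mesenchymal gates by 4.60 ± 0.71 (log2 ± SE, edgeR adjusted p = 0.000136) and Ccl7 by 5.93 ± 0.87 (edgeR adjusted p = 8.31e-05), both under all 15 alternatives. Of the cells with at least 5 Ccl7 UMIs, 82.7, 62.4 and 53.1% also had 5 Ccl2 UMIs, against 1.89, 1.64 and 1.17% of all cells. Of those with 5 Ccl2 UMIs, 45.1, 36.1 and 42.6% had 5 Ccl7 UMIs, against 1.03, 0.947 and 0.944% of all cells. The cells of no gate with at least 10 Ccl2 UMIs were led at P15 by Pf4 (3087 CPM against 63.4), Ccl12 (1021 against 15) and Mrc1 (1715 against 33.0), the macrophage mannose receptor gene. The 29 such cells at P25 were led by Ccl4 (1059 against 19.1) and Mfap5 (1391 against 40.3), and Igfbp6 (2275 against 141) was also among their leading genes. The 24 such cells at 8 weeks were led by Ccl4 (1242 against 2.27) and Ccl12 (790 against 2.88).

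**Figure D4:**
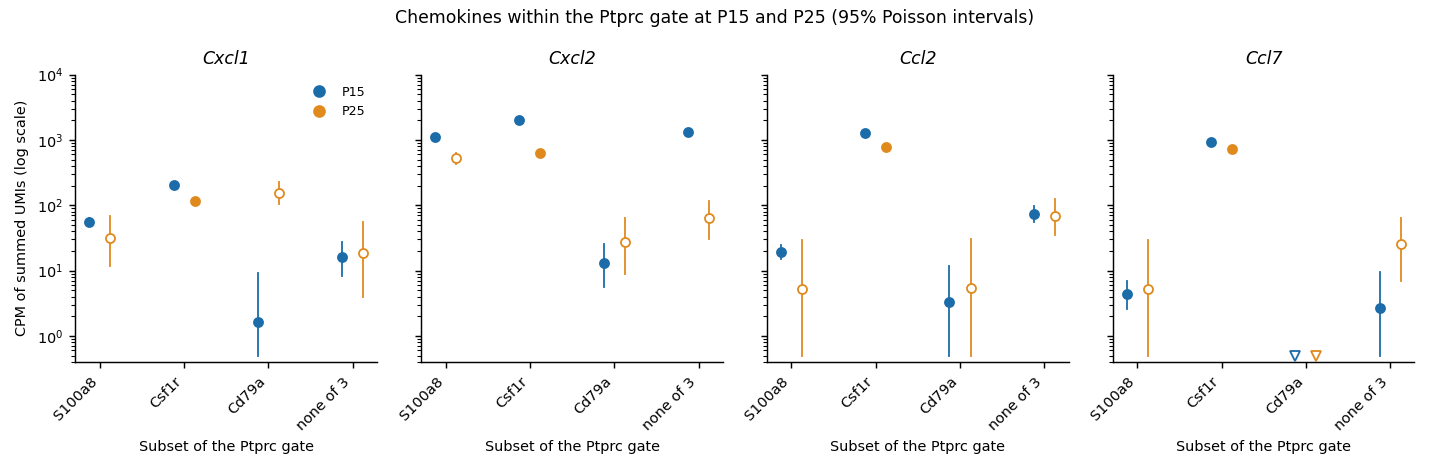
Level of Cxcl1, Cxcl2, Ccl2 and Ccl7 in subsets of the Ptprc gate at P15 and P25. Values are in CPM on a log axis with exact 95% Poisson intervals. The subsets are cells with at least 2 Csf1r, 10 S100a8 or 3 Cd79a UMIs, and cells that passed none of these thresholds. Among the first 3 subsets, which overlap, Ccl2 and Ccl7 were high in the Csf1r cells. Cxcl2 was high in the Csf1r and the S100a8 cells (1990.2 and 1115 CPM at P15). The 65 P15 cells that passed none of the thresholds also held Cxcl2.

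Outside blood cells, Ccl2 was found in the Rgs5 gate and Ccl2 and Ccl7 in the 8-week Mmp3 gate. The 187 Rgs5 cells at P15 had 403 CPM of Ccl2 (376 to 432), of which 17.8% was in the highest cell, but 12.7 of Ccl7. At P25 all 52 Ccl2 UMIs of 11 Rgs5 cells lay in 1 cell, and at 8 weeks 13 cells had none, which allows up to 23.5 CPM. The sum of 5 immune markers was 41.1 CPM in the P15 Rgs5 cells, against 11807 in the Ptprc gate. Mmp3 cells had 1.82, 56.0 and 312 CPM of Ccl2 and 1.82, 11.2 and 301 CPM of Ccl7, the 8-week values on 85 and 82 UMIs, of which 48.2 and 46.3% lay in 1 cell. The immune markers of the 8-week Mmp3 cells summed to 7.34 CPM, with 4 of the 5 at 0. The fit called Ccl7 higher in the Mmp3 gate by 4.55 ± 1.01 (edgeR adjusted p = 0.0135), but the direction turned to -0.96 without the 8-week library (edgeR adjusted p = 0.898), and with the library as a block the adjusted p was 0.0528 by the same edgeR test. Without P15 or P25 the edgeR adjusted p of Ccl7 was 0.0565 and 0.0922. Ccl2 there was at 2.70 (edgeR adjusted p = 0.0700). It was called higher with halved thresholds, on 3 Mmp3 sums (edgeR adjusted p = 0.0188). On 2 Mmp3 sums it was called with cells of several gates kept in each (edgeR adjusted p = 0.0236). DESeq2 also called it on 2 Mmp3 sums (Wald test adjusted p = 0.0341). In 7 other alternatives Ccl2 stayed without a call. In 4 its direction turned, each on 1 Mmp3 sum. Ccl2 was at 4.37 without P15 and at -3.36 without the 8-week library, each on 1 Mmp3 sum.

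Cx3cl1 was sparse everywhere: no cell had more than 8 UMIs, and the libraries held 589, 989 and 280 in all. The Mmp3 gate had 74.7 CPM (45.6 to 115) in 18 cells at P25 and 29.4 (12.7 to 57.9) at 8 weeks, on 20 and 8 UMIs, whereas the 41 Mmp3 cells at P15 had none, which allows up to 5.47 CPM. The Rgs5 cells had 10.8 CPM at P15 and 32.2 at P25, the latter on 4 UMIs of 11 cells, and the Krt14 cells 6.43, 4.39 and 2.72 CPM. No gate was called for Cx3cl1 in the main fit, with 1.44 in the Mmp3 gate (edgeR adjusted p = 0.394). Halved thresholds gave 2.67 in the Mmp3 gate (edgeR adjusted p = 0.00423) and -2.29 in the Ptprc gate (edgeR adjusted p = 0.0168), each on 3 sums. DESeq2 gave -1.68 in the Ptprc gate (Wald test adjusted p = 0.0475). No other setting with more than 1 sum called either of these gates. Without P15 its log2 difference was 2.89 in the Mmp3 gate, -2.50 in the Ifitm5 gate and -2.03 in the Ptprc gate. Each of these 3 gates then had 1 sum, so no call is drawn from that fit. At this depth differences between most gates were not detectable.

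The Mmp3 calls rest on few cells. The genes that led this gate differed between ages, apart from Mmp3 and Sod3. After Mmp3 they began with Mmp10 (1937 CPM) and Il1rl1 (3213) at P15. At P25 they began with Enpp2 (1579 CPM) and Rarres1 (456), and at 8 weeks with Ifit1 (378 CPM) and Pi15 (286). Whether the gate held the same kind of cell at each age was not tested. With the 6% of cells with the highest doublet scores left out, the Mmp3 gate had 20 cells in 1 library only, so no call is drawn from that fit. Cxcl14 was at 4.38 and Cxcl2 at 5.15. Cxcl1 was then at 2.23, Cxcl5 at 3.08, Ackr3 at 1.15 and Ccl7 at -8.33, each below its value with all cells. The counts of alternatives that follow include settings with 1 Mmp3 sum. The call held under 14 of 15 alternatives for Cxcl1 and for Cxcl2, 11 of 15 for Cxcl14, 9 of 14 for Cxcl5, 8 of 15 for Ackr3 and 7 of 15 for Ccl7. Doubled thresholds ended it for Cxcl5, Cxcl14, Ackr3 and Ccl7, and thinning to 3000 UMIs for Cxcl14, Ackr3 and Ccl7. The Cxcl1 calls held under 6 of 15 alternatives in the Ibsp gate and 10 of 15 in the Ifitm5 gate. Cxcl1, Cxcl2 and Cxcl3, and Ccl2, Ccl7 and Ccl12, are related genes whose reads the counting could divide unevenly.

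Of 26 further ligands, 20 could be tested. In the Ptprc gate 15 of them were higher, where 26% of all genes were called higher, with a median log2 difference of 7.56 against 0.03 over all genes tested, and at P15 Ccl4 (959 CPM), Pf4 (908), Ccl3 (597) and Ccl6 (462) were the most abundant there. In the Krt14 gate 5 of the 20 were higher (Ccl20, Ppbp, Cxcl3, Cxcl16 and Ccl11), a share near the 24.8% of all genes called higher there. Of these Ppbp was at 154 CPM and Cxcl3 at 53.3 at P25, both neutrophil attractants. In the Mmp3 gate, where 5.95% of all genes were called higher, 4 were higher (Cxcl13, Cxcl16, Ccl11 and Ccl8), and 3 of them, Ccl11 (389 CPM), Cxcl13 (235) and Ccl8 (187), were at 0 in that gate at P15 and P25, so those calls rest on the 8-week library, while Cxcl16 was at 27.3, 52.3 and 36.7 CPM. The median of the list in the Mmp3 gate was -0.31 against -0.12 over all genes. No further ligand was called in the Hand2, Ibsp or Ogn gates, where 2.38, 2.34 and 5.05% of all genes were called. Cxcl16 alone was lower in the Ifitm5 gate, where 5.51% of all genes were called lower.

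Of 18 receptors, 13 could be tested, and 10 were higher in the Ptprc gate, where 26% of all genes were called higher. Cx3cr1 (325 CPM), Cxcr2 (268), Ccr1 (248) and Ccr2 (132) led there at P15. The receptors of CX3CL1, of CXCL1, CXCL2 and CXCL5, and of CCL2 and CCL7 were among the transcripts of sorted blood cells. In the Mmp3 gate the scavenging receptors Ackr4 (177, 56.0 and 40.4 CPM) and Ackr2 (47.4, 18.7 and 33.0 CPM) were called higher, beside Ackr3. Of all genes 5.95% were called higher there. The median of the 13 tested receptors in that gate was -2.16 against -0.12 over all genes. Ackr4 was also higher in the Ifitm5 gate by 3.47 ± 0.75 (log2 ± SE, edgeR adjusted p = 0.00706), with 29.6, 25 and 90 CPM. It was the 1 receptor called there, where 7.77% of all genes were called higher. Cxcr4, the signalling receptor of CXCL12, was higher in the Ptprc gate by 6.26 ± 0.37 (edgeR adjusted p = 2.48e-08). It was lower in the Krt14 gate, where 2 receptors were lower and 1 was higher, beside 21.8 and 24.8% of all genes.

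In the Mmp3 gate, where 5.95% of all genes were called higher, 4 of 13 inducers and feedback genes of inflammation, all tested, were higher. These were Il1r1, the interleukin 1 receptor gene, by 2.28 ± 0.33 (log2 ± SE, edgeR adjusted p = 0.00102) with 140.3, 190.4 and 180 CPM, Tnfaip3, which restrains NF-kappaB, by 2.51 ± 0.49 (edgeR adjusted p = 0.00595), Tnfrsf1a and Dpp4, a protease gene whose product cleaves chemokines. The median of the list there was 0.86 against -0.12 over all genes. In the Ogn gate, where 3.97% of all genes were called higher, Nfkbiz alone was higher, by 1.51 ± 0.29 (edgeR adjusted p = 0.00672). In the Krt14 gate 2 were higher and 7 lower, where 24.8 and 21.8% of all genes were called higher and lower. In the Ptprc gate 7 were higher and 2 lower, beside 26 and 20.4% of all genes, with Il1b at 1184 CPM at P15. The 2 higher in the Krt14 gate and the 2 lower in the Ptprc gate were not above these shares. In the Ifitm5 gate 3 were lower, where 5.51% of all genes were. Of the 11 dissociation genes, none was called by edgeR in the Mmp3, Hand2, Ibsp, Ifitm5 or Ogn gates, where 2.34 to 13.3% of all genes were called. In the Krt14 gate 1 was higher and 7 were lower, beside 24.8 and 21.8% of all genes. Atf3 alone was higher in the Ptprc gate, where 26% of all genes were. With the scaling used, the median difference of all genes was -0.12 in the Mmp3 gate and 0.10 in the Ogn gate.

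The genes whose levels over the 19 sums were most like those of a member were found by Pearson correlation of log2(CPM + 1) among 8976 genes, as a description: the sums share libraries and gates. Cxcl12 was most like Igfbp4 (r = 0.957), St6galnac5 (0.945) and Nid1 (0.942), and Ackr3 most like Sh3d19 (0.863). Cxcl1 was closest to Gng12 (0.863) and Osmr (0.862), Cxcl5 to Cast (0.862), and Cxcl14 to Igfbp2 (0.801), the lowest of the 9 best values. Cxcl2 came closest to Tbc1d10b (0.909) and the actin-related genes Arpc3 (0.904) and Arpc1b (0.898). Ccl2 was nearest to Sp100 (0.908), Ccl7 to AI607873 (0.946), and Cx3cl1 to Entpd2 (0.849).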

How the data were processed

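Per the file headers, the authors made the deposited counts of UMIs per gene and cell with Cell Ranger 6.1.2 for P15 and 8 weeks and 6.0.1 for P25, whose table lists 32293 genes against 22056 (submitters' processing notes give mm10 and Cell Ranger 6.1.2 for all). The chemistry counts 3′ ends of transcripts. Levels were scaled to the UMIs of the 21446 shared identifiers, 95.2 to 99.8% of a library's UMIs (46234378 to 188157997), and all deposited cells were kept. Scrublet (scanpy 1.11.5) called 378, 0 and 6 doublets at P15, P25 and 8 weeks and did not separate them in the last 2, so the 6% highest scores were left out only as an alternative. UMI sums of a gate in a library (at least 20 cells) were fitted with edgeR 4.0.16 (R 4.3.3; TMM, low-count filter, quasi-likelihood, no block), with DESeq2 1.42.0 as an alternative. The gates were disjoint and the libraries pooled the same mice over gates, so sums of 1 library are paired by source: the correlation of their deviations from the gate means was over 0.1 in 39 of 46 pairs (range 0.05 to 0.74). On simulated counts the edgeR step was tested. Members and gene lists were chosen with earlier results of these data known. Of lists, at most 4 genes per gate with the highest level there are named, plus genes of short counts. Leading genes of cells rich in a member, and the alternative without a member's highest cell, were chosen after the data were seen. The 15 alternatives comprised other thresholds, cell filters, scaling and tests and leaving out each library.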

Additional observations from a re-analysis of the deposited data

Results flagged for a closer look

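The ratio of Cxcl1 in the Ibsp gate to that in the Ifitm5 gate was 3.24 at P15 and 0.530 at P25, and that of Cxcl2 was 3.14 and 0.114, so that the direction differed between these ages with counting intervals that did not reach 1. There is 1 library per age, the difference was not tested, and of the 20 Cxcl2 UMIs of the Ifitm5 gate at P25, 90.0% lay in 1 cell. The 5 macrophage markers summed to 48.1 CPM in the Ifitm5 gate at P25 against 9.29 there at P15 and 6.91 in the Ibsp gate at P25, and the 5 immune markers to 36.2 against 16.4 and 6.84 CPM. Their part in the ratios was not tested.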

How the results depend on the processing

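Over 45 comparisons of 9 genes in 5 mesenchymal gates, edgeR called 10, where 2.34 to 13.3% of all genes were called in a gate. The count was 6 with doubled thresholds, 4 without the 6% highest doublet scores, and 3 to 8 with 1 library left out. In the first of these, with thresholds per 10000 UMIs, and without the doublet scores, the Mmp3 gate kept 1 sum, assumed to vary like the other gates. So it did without P15 and without 8 weeks, and so did the Ifitm5 and Ptprc gates without P15 and without P25. The counts given here include such fits, which have no replicate of that gate. The other settings gave 7 to 13. In the Krt14 and Ptprc gates 7 of 18 were called, a share not above the 46.6 and 46.4% of all genes called there. Between the Ibsp and Ifitm5 gates 0 were called, and 1 with halved thresholds, doubled thresholds, thresholds per 10000 UMIs, without the doublet scores and by DESeq2. With 1 library left out it stayed at 0. With the library as a replicate block the counts were 10, 8 and 0, and the block ended the call of Ccl7 in the Mmp3 gate and added Cxcl14 in the Ifitm5 gate (-1.79, edgeR adjusted p = 0.0433, against -1.48 and 0.445) and Cxcl5 in the Krt14 gate, with no other change among these comparisons. Values in the Mmp3 gate that turned were Ccl7, at -1.13 with doubled thresholds, -1.70 with thresholds per 10000 UMIs, -8.33 without the doublet scores and -0.96 without 8 weeks, and Ccl2, at -2.83, -3.07, -2.76 and -3.36 in the same settings. With 1 library left out Ccl7 reached up to 5.68 and Ccl2 up to 4.37. The cause was not tested. Of 19 levels, 10 moved beyond their counting interval with doubled thresholds and 9 without the doublet scores, and of 27, 14 moved with halved thresholds. Of 27 shares of cells, 16 moved when cells were not thinned.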
